A study of Mus musculus with 8 samples.

Results

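The genes described here are 10 genes that encode isozymes of 4 steps of glycolysis in mouse pachytene spermatocytes (PS) and round spermatids (RS). They were taken by gene symbol, from a list drawn up with earlier results of these data known: the hexokinases Hk1 and Hk2, the phosphofructokinases Pfkl, Pfkm and Pfkp, the glyceraldehyde-3-phosphate dehydrogenases Gapdh and Gapdhs, and the lactate dehydrogenases Ldha, Ldhb and Ldhc. They are 10 of the 23343 genes in the RNA-seq tables and take up 14 of the 26099 transcript rows. RNA-seq was performed on PS and RS of Rnf8;Scml2-double knockout (dKO) mice, which lack the ubiquitin ligase RNF8 and the Polycomb protein SCML2, and H3K27ac ChIP-seq was performed on PS and RS of wild-type mice. Each of these 4 groups had 2 replicates, 8 samples in all. Every sample was labelled as adult testis of C57BL/6 mice, and cells were enriched by sedimentation through a BSA gradient. For RNA, the study's methods scaled this down to the testes of 1 dKO male at a time. Because no wild-type RNA and no dKO ChIP-seq were analysed here, the 2 assays differ in genotype, and nothing below separates the stage from the mutations.

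Glycolysis splits glucose into pyruvate and yields ATP, and lactate dehydrogenase interconverts pyruvate and lactate. Male germ cells replace several of these enzymes with forms made only, or almost only, in the testis. GAPDHS is bound to the fibrous sheath of the sperm tail, where glycolysis supplies ATP for swimming, and LDHC is the lactate dehydrogenase subunit of spermatocytes, spermatids and sperm. Hexokinase 1 is encoded by a single gene, but germ cells start it further upstream, and the resulting spermatogenic protein lacks the segment that attaches the common form to mitochondria. Spermatocytes are known to live largely on lactate delivered by Sertoli cells. H3K27ac, acetylation of lysine 27 of histone H3, marks active promoters and enhancers.

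The promoter sequences below are shown because the transcripts that differed most between the stages start from different promoters of the same gene or from duplicated genes. All 10 genes matched the RefSeq promoter table (build GRCm38.p6, the assembly called mm10 by the authors). Each line gives the 250 bases before a RefSeq start, from 5′ to 3′ on the strand of the gene. The first Hk1 window ends 12 bases earlier, where an exon of another Hk1 transcript begins. Capitals mark matches, on either strand, to the cAMP response element core TGACG or to the GC box GGGCGG.

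The windows for Gapdhs were at chr7:30739408-30739657 (minus strand) and at chr7:30743682-30743931 (minus strand). The first, labelled listed start, lies before a RefSeq start 51 bases upstream of the start listed for the RNA transcript. The second lies before an upstream first exon that RefSeq lists and the RNA data do not. Both lie in introns of longer RefSeq transcripts of Gapdhs and of Sbsn, a gene on the other strand.
Gapdhs, listed start: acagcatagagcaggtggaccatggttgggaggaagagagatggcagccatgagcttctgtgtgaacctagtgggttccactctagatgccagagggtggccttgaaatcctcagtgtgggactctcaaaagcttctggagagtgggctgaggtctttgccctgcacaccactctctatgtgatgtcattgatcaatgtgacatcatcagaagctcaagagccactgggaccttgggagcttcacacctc
Gapdhs, upstream start: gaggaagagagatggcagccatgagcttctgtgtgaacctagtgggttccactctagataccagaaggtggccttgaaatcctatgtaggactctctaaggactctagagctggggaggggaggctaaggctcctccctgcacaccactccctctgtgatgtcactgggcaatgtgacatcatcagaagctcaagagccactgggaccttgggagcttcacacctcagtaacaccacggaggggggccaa
The window for Gapdh, the general isozyme, was at chr6:125165774-125166023 (minus strand), in an intron of a longer Gapdh transcript. It lies before a RefSeq start 190 bases upstream of the Gapdh start listed for the RNA transcript.
Gapdh: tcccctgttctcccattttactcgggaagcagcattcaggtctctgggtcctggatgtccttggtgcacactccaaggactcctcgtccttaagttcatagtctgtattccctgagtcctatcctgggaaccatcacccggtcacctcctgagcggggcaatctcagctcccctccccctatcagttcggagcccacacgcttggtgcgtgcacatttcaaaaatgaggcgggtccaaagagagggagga
The windows for Hk1 were at chr10:62379921-62380158 (minus strand), before the transcript NM_010438, which RefSeq names isoform HK1-sb, and at chr10:62340422-62340671 (minus strand), before NM_001146100, which RefSeq names isoform HK1. The second start lies 39.5 kb downstream of the first, in an intron of it, and its window overlaps an exon of the antisense Hk1os.
Hk1, HK1-sb start: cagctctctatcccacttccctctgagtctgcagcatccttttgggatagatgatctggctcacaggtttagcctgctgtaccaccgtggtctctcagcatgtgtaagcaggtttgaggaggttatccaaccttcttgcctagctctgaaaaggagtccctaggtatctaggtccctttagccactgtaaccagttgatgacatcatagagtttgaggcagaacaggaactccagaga
Hk1, HK1 start: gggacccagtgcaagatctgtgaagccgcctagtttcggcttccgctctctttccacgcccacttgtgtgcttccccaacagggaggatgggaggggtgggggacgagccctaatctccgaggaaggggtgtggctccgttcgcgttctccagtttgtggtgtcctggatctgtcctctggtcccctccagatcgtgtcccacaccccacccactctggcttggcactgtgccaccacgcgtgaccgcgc
The windows for the lactate dehydrogenases were at chr7:46861013-46861262 (plus strand) for Ldhc and at chr7:46846832-46847081 (plus strand) for the Ldha transcript NM_001136069. Ldha and Ldhc are neighbours in the same orientation, and these starts are 14.2 kb apart. The Ldhc window overlaps exons of the long noncoding RNA Gm39011 on the other strand, and the Ldha window lies in an intron of a longer Ldha transcript.
Ldhc: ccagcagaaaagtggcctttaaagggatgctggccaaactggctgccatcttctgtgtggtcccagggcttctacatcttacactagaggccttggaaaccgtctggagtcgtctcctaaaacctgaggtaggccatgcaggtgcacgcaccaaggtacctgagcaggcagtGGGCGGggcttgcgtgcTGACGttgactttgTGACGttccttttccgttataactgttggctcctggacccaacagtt
Ldha: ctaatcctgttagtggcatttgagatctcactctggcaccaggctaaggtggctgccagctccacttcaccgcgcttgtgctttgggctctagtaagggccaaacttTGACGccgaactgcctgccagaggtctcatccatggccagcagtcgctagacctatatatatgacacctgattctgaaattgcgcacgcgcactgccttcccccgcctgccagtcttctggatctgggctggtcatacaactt

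The 2 Gapdhs windows are copies of one another in large part. In a global alignment 202 of 282 positions (71.6%) were identical and the longest shared run was 59 bases, whereas the other 20 pairs of these windows were 45.7% to 55.4% identical with shared runs of at most 10 bases. Both Gapdhs windows and the HK1-sb window were almost free of CpG, with 0, 1 and 1 CpG dinucleotides in 250 bases, whereas the window of the general HK1 start held 14 and that of Gapdh held 8. Windows of the general isozymes ranged from 2 CpG (Pfkm, NM_001163488) to 25 (Hk2 and an upstream Ldha start). Over the 32851 promoter windows in the table the median was 6 CpG, with quartiles of 2 and 16. The Ldhc window also held 8 CpG. It had 2 matches to TGACG, which begin 61 and 47 bases before the start, and 1 match to GGGCGG. The Ldha window printed above had 1 match to TGACG, and the window of the other Ldha start held a full cAMP response element (TGACGTCA), within which 2 TGACG matches overlap, ending 5 bases before the start. The core TGACG was present in 17.8% of all windows, the full element in 1.55%, and the GC box in 32.7%. Neither Gapdhs window, nor those of Gapdh and Hk1, held any of these words, and none of the members' windows held TATAAA, which 12.4% of windows hold. Only exact matches were counted. TGACATCA, which differs from the full element by 1 base, stands in both Gapdhs windows and in the HK1-sb window. Its share over all windows was not counted. A match of letters is a description of the window and not a binding site.

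The RNA libraries held 9655405 to 12289694 reads on genes after the authors' split between isoforms. Ldhc had at least 35115 reads per library, and Pfkl and Hk2 had at most 84. RNA levels are given as RPKM (reads scaled to transcript length and to library size), the only scale used below to compare genes with each other. Stage differences are log2 folds of RS over PS from edgeR's quasi-likelihood test on read counts, with Benjamini-Hochberg adjusted p over the 14647 genes tested, and a gene was called changed at an adjusted p under 0.05 and a change over 1.5-fold. The summed RPKM of 9 spermatid genes (Prm1, Prm2, Tnp1, Tnp2 and others) was 501 and 841 in PS and 13587 and 14280 in RS. All 9 were called higher in RS. The summed RPKM of 9 spermatocyte genes was 981 and 927 in PS and 402 and 470 in RS. Of these, 6 were called lower, and Sycp1, Meiob and Ccna1 were not called. Piwil1 alone fell from a mean of 306 to 13.7. Mean RPKM was higher in RS for Ccna1 (92.3 to 117) and Meiob (8.55 to 9.13). Other cells moved with the stage as well: the summed RPKM of 6 Leydig cell genes (Insl3, Cyp17a1, Cyp11a1, Hsd3b1, Star and Lhcgr) was 729 and 547 in PS against 68.3 and 42.6 in RS, with all 6 genes lower in RS, and that of 3 macrophage genes (Adgre1, Cd68 and Csf1r) was 1.05 and 1.20 in PS against 11.8 and 10.7 in RS. The summed RPKM of 7 Sertoli cell genes was 5.30 to 13.3 and that of 7 genes of spermatogonia 26.6 to 51.3, with 2 and 4 genes called higher in RS, that of 2 peritubular genes was 1.54 to 2.35, and 3 haemoglobin genes were listed at 0. The part of these cells in the differences below was not tested, and in bulk RNA fewer cells of a type and less RNA per cell cannot be told apart.

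All 10 genes passed the filter on low counts. In RS, 3 of the 10 were called higher (Gapdhs, Hk1 and Hk2), against 30.4% of all genes tested, and 1 was called lower (Ldha), against 27.6%. The median log2 fold over the 10 genes was -0.19, beside 0.01 over all genes tested. The RPKM of the stages did not overlap for 6 of the 10 genes, beside 83.6% of all genes tested.

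**Figure D1:**
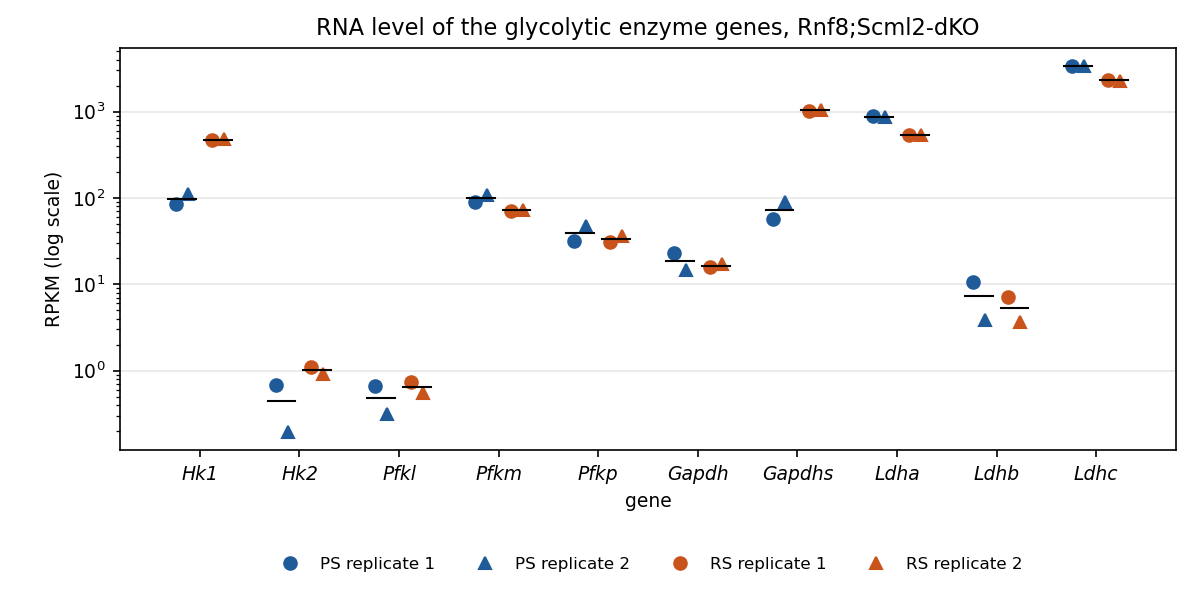
RPKM of each gene (log scale) in the 4 dKO RNA libraries, with blue for PS, orange for RS, circles for replicate 1, triangles for replicate 2 and a black bar for the mean of each stage. Gapdhs rises from 56.4 and 90.6 in PS to 1029 and 1044 in RS, Hk1 rises as well, and Ldhc is the highest of the genes in every library.

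Hexokinase traps glucose in the cell as glucose 6-phosphate. Hk1 stood at 85.6 and 110 RPKM in PS and at 471 and 478 in RS. Its levels in the 2 spermatid libraries lay far above those in PS, and its rank among all genes by RPKM moved from 986 and 707 to 85 and 72. The log2 fold was 2.31 ± 0.15 (SE, n = 2 per stage), a 4.95-fold rise (edgeR, adjusted p = 6.7e-06). Hk2, an insulin-responsive hexokinase of muscle and fat, was listed at 0.685 and 0.196 RPKM in PS and 1.09 and 0.924 in RS, from 43 and 12 reads in PS and 84 and 60 in RS. Its log2 fold was 1.24 ± 0.46 (edgeR, adjusted p = 0.044). The call for Hk2 was lost without PS replicate 2 (log2 fold 0.67, adjusted p = 0.076), without RS replicate 1 (adjusted p = 0.13) and without RS replicate 2 (adjusted p = 0.054). Hk1 made up between 99.2% and 99.8% of the summed hexokinase RPKM of these genes in every library.

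The rise of Hk1 lay in the row of the spermatogenic isoform. NM_010438 (HK1-sb), at chr10:62268855-62379908, stood at 51.4 and 71.5 RPKM in PS and 445 and 394 in RS. NM_001146100 (HK1), at chr10:62268855-62340421, stood at 34.2 and 38.9 RPKM in PS and 26.7 and 83.5 in RS. The HK1-sb row was several times higher in both spermatid libraries, whereas the stages overlapped for the HK1 row. When the test was run on single transcript rows, 2 of the 14 member rows were called higher in RS (HK1-sb and Gapdhs), beside 27.1% of 15626 rows, and 1 was called lower (Ldha NM_001136069), beside 24.7%. The log2 fold was 2.81 ± 0.21 for HK1-sb (edgeR, adjusted p = 0.00069) and 0.63 ± 0.51 for HK1 (edgeR, adjusted p = 0.33). HK1-sb made up 60.1% and 64.8% of Hk1 RPKM in PS and 94.3% and 82.5% in RS. The rows share most exons, so the split rests on the authors' expectation-maximization step, and the 2 spermatid libraries differed in it more than in total Hk1.

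Phosphofructokinase commits the sugar to glycolysis. Pfkm, the muscle-type gene, stood at 89.8 and 109 RPKM in PS and 71.5 and 72.6 in RS. Its stages did not overlap, but the difference was below 1.5-fold (log2 fold -0.42 ± 0.14, edgeR adjusted p = 0.025). The 3 Pfkm transcript rows held the same read count as each other in 3 of the 4 libraries, so the isoforms were not resolved. Whether each row holds a part of the shared reads or all of them cannot be read from the tables, and in the second case the summed level of Pfkm would be overstated. The row NM_001163488 alone stood at 30.2 and 32.2 RPKM in PS and 24.1 and 24.4 in RS. The log2 folds of the 3 rows were -0.32, -0.32 and -0.60, none of them called. Pfkp, the platelet-type gene, stood at 32.2 and 47.4 RPKM in PS and 30.8 and 36.0 in RS, with overlapping stages (log2 fold -0.22 ± 0.20, edgeR adjusted p = 0.35). Pfkl, the liver-type gene, was listed at 0.661 and 0.315 RPKM in PS and 0.731 and 0.548 in RS, from 13 to 38 reads per library, and its stages overlapped too (log2 fold 0.44 ± 0.42, edgeR adjusted p = 0.39). Pfkm accounted for 66.5% to 73.2% of the summed phosphofructokinase RPKM, Pfkp for 26.2% to 33.0%, and Pfkl for at most 0.71%. The shares of Pfkm carry the limit on its level just given. None of the 3 genes was called between the stages.

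At glyceraldehyde-3-phosphate dehydrogenase, the testis gene was called higher in RS and the general gene was not called. Gapdhs, at chr7:30729887-30739356, stood at 56.4 and 90.6 RPKM in PS and 1029 and 1044 in RS. Both spermatid libraries lay far above both spermatocyte libraries, and the rank of the gene moved from 1565 and 933 to 17 and 16. The log2 fold was 3.85 ± 0.23 (SE, n = 2 per stage), a 14.5-fold rise (edgeR, adjusted p = 4.7e-06). Gapdh, at chr6:125161852-125165583, stood at 22.8 and 14.7 RPKM in PS and 15.7 and 17.0 in RS. The spermatid values of Gapdh lay between those of the spermatocyte libraries, and its log2 fold was -0.15 ± 0.22 (edgeR, adjusted p = 0.56). The authors kept uniquely aligned reads only, so reads shared with the many processed copies of Gapdh in the genome were lost, and the level of Gapdh may be underestimated in every library.

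Within each library, which needs no scaling between libraries, the ratio of Gapdhs to Gapdh RPKM was 2.47 and 6.17 in PS and 65.7 and 61.4 in RS. Gapdhs thus made up 71.2% and 86.0% of the summed GAPDH RPKM in PS, or 78.6% ± 10.5 (SD, n = 2), and 98.5% and 98.4% in RS, or 98.4% ± 0.0736 (SD, n = 2). The difference of 19.8 percentage points had p = 0.333 in a two-sided exact permutation test, which is the smallest p that 2 against 2 samples can give. In PS too the listed level of Gapdhs was above that of Gapdh, with the limit on Gapdh just given, and the PS libraries held spermatid transcripts. The summed GAPDH RPKM went from 79.2 and 105 in PS to 1045 and 1061 in RS.

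**Figure D2:**
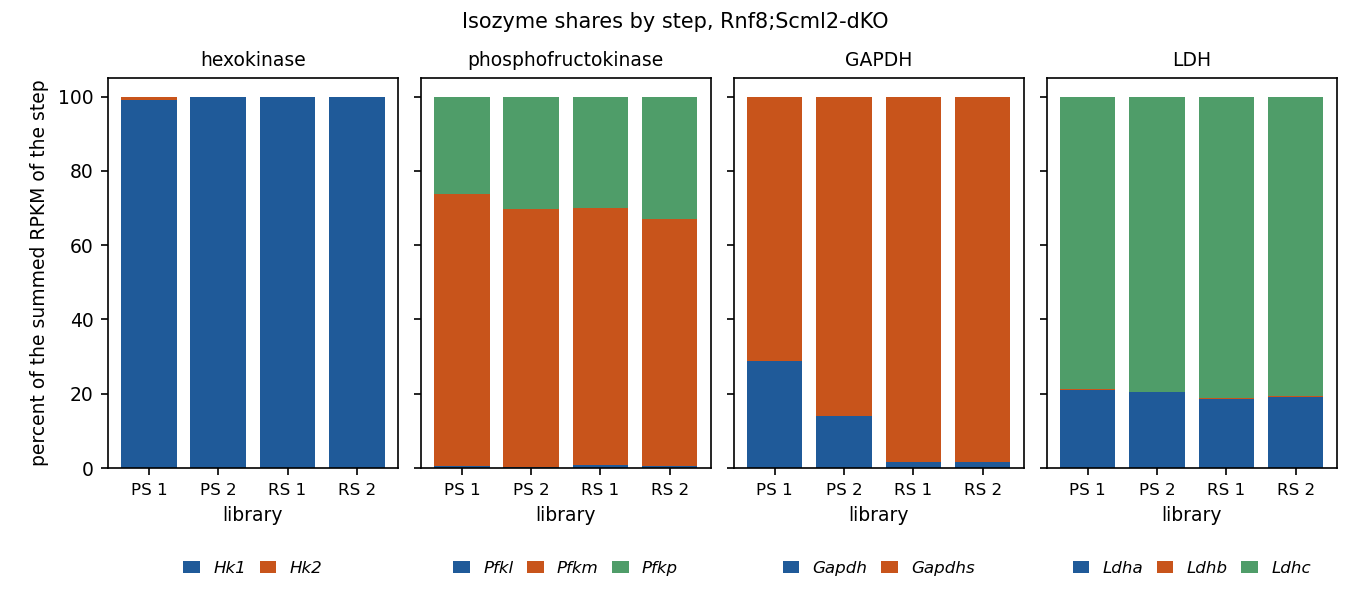
Percent of the summed RPKM of each step taken by each gene, in the 4 dKO RNA libraries (bars, stacked to 100%). Gapdhs takes 71.2% and 86.0% of the GAPDH bars in PS and 98.5% and 98.4% in RS, whereas the Ldhc part of the LDH bars stays between 78.8% and 81.2% and Hk1 fills the hexokinase bars.

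Lactate dehydrogenase differed from GAPDH in that its testis gene was already abundant in PS and was not called higher in RS. Ldhc, at chr7:46861263-46878142, stood at 3357 and 3343 RPKM in PS and 2358 and 2276 in RS. It had the highest RPKM of all genes in both spermatocyte libraries and ranked 5 in both spermatid libraries. Its log2 fold was -0.49 ± 0.10 (edgeR, adjusted p = 0.0034), a difference of 1.41-fold that stayed under the 1.5-fold threshold although the stages did not overlap. Ldha, the muscle-type subunit gene, stood at 892 and 857 RPKM in PS and 539 and 542 in RS, again with every spermatid value below every spermatocyte value. Ldha fell (log2 fold -0.65 ± 0.11, edgeR adjusted p = 0.00076), by 1.57-fold.

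Almost all Ldha reads were assigned to NM_001136069, which took 99.5% to 100% of Ldha RPKM. The 2 Ldha rows overlap and end at the same base, so this split too rests on the authors' expectation-maximization step. The row that starts 1.28 kb upstream, at the window with the full cAMP response element, had 78 and 14 reads in PS and 0 and 26 in RS, and its log2 fold of -1.86 ± 1.45 was not called (edgeR, adjusted p = 0.32). Ldhb, the heart-type subunit gene, stood at 10.5 and 3.91 RPKM in PS and 7.15 and 3.62 in RS. Replicate 1 was higher than replicate 2 in both stages, the stages overlapped, and the log2 fold was -0.36 ± 0.46 (edgeR, adjusted p = 0.51). Without PS replicate 2, Ldhb was called lower in RS (log2 fold -0.85, adjusted p = 0.026), whereas its log2 fold was 0.49 without PS replicate 1 and 0.04 without RS replicate 2, neither called.

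The ratio of Ldhc to Ldha RPKM was 3.76 and 3.90 in PS and 4.38 and 4.20 in RS. Ldhc made up 78.8% and 79.5% of the summed LDH RPKM in PS and 81.2% and 80.7% in RS, a difference of 1.76 percentage points (two-sided exact permutation p = 0.333, the smallest possible). The spermatid shares lay above the spermatocyte shares in both libraries, and the shift was small beside the 19.8 points for GAPDH. The LDH sum held Ldha, Ldhb and Ldhc only. Ldhal6b, described below, was left out, although it stood at 821 and 835 RPKM in PS and 573 and 509 in RS. With it in the sum, the share of Ldhc would be lower in every library. By RPKM, the order of the members in PS was Ldhc, Ldha, then Pfkm, Hk1 and Gapdhs close together. The Pfkm and Hk1 values overlapped there, as did those of Hk1 and Gapdhs, and Pfkp, Gapdh and Ldhb followed, with Hk2 and Pfkl overlapping at the end. In RS the order was Ldhc, Gapdhs, Ldha, Hk1, Pfkm, Pfkp, Gapdh, Ldhb, and then Hk2 and Pfkl. No neighbours in this RS order overlapped in their 2 values each. The place of Pfkm depends on the sum over its rows, since a single row would put it below Pfkp in RS and close to Pfkp in PS.

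The genes whose RPKM lay nearest to those of Gapdhs in the 4 libraries, among the genes tested, were Spz1, Odf1 and Gsg1. Their mean absolute differences from Gapdhs were 0.14, 0.16 and 0.18 on the log2(RPKM + 1) scale. Odf1 encodes a protein of the outer dense fibres of the sperm tail and Spz1 a transcription factor of spermatogenic cells. Spz1 stood at 60.5 and 85.4 RPKM in PS and 944 and 887 in RS. Nearest to Ldhc were Gstm5, Phf7 and Odf2, but each lay over 1 unit away on that scale (1.02, 1.05 and 1.17), so no gene had levels close to those of Ldhc.

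The rest of the pathway was examined with lists of 23 other glycolysis genes and 19 regulators and carriers. Of the other glycolysis genes, 20 were tested, and 7 were called higher and 3 lower in RS, beside 30.4% and 27.6% of all genes tested. Their median log2 fold was 0.24, beside 0.01 over all genes. Both testis aldolases were called higher, with Aldoart2 at 18.5 and 29.4 RPKM in PS and 219 and 216 in RS, and Aldoart1 at 1.71 and 2.72 in PS and 16.8 and 20.3 in RS. Pgk2, the testis phosphoglycerate kinase, stood at 119 and 134 RPKM in PS and 484 and 492 in RS. Its widespread counterpart Pgk1, on the X chromosome, stood at 0.660 to 1.43 RPKM in all libraries. The paper describes silencing of the sex chromosomes in meiosis that persists into spermatids, and RNF8 and SCML2 as activating genes that escape it. With no wild-type RNA here, the part of the mutations in the level of Pgk1 was not tested. Only uniquely aligned reads were kept, so that level may also be underestimated. Gpi1 (glucose-6-phosphate isomerase) rose from 23.7 and 29.2 RPKM to 170 and 177 (6.71-fold, edgeR adjusted p = 3.7e-06). Aldoa and Pkm, the aldolase and pyruvate kinase of muscle and many other tissues, were also called higher.

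Other testis isozymes did not rise. Ldhal6b, a retrogene of the lactate dehydrogenase family, stood at 821 and 835 RPKM in PS and 573 and 509 in RS, a log2 fold of -0.57 ± 0.12 that stayed under 1.5-fold (edgeR, adjusted p = 0.0027). Its levels lay close to those of Ldha in all libraries, and it passed 1.5-fold under 3 of the 9 alternatives. Eno4, a sperm enolase, stood at 25.3 and 31.9 RPKM in PS and 33.1 and 31.9 in RS (edgeR, adjusted p = 0.25). Pdha2, the testis subunit of pyruvate dehydrogenase, fell from 105 and 91.1 RPKM to 52.1 and 44.8 (log2 fold -0.98 ± 0.14, edgeR adjusted p = 0.00033). Eno3, the muscle enolase (19.2 and 38.3 RPKM in PS, 12.4 and 15.0 in RS), Aldoc (3.87 and 2.49 RPKM in PS, 1.22 and 1.40 in RS) and Eno2 were the glycolysis genes called lower. Eno3 was no longer called without PS replicate 2 (log2 fold -0.39) and Aldoc without RS replicate 1 (adjusted p = 0.073), and Eno2 rested on at most 12 reads in any library.

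Among the regulators and carriers, 18 of 19 were tested, with 4 called higher and 4 called lower, beside 30.4% and 27.6% of all genes tested. Their median log2 fold was 0.18, beside 0.01 over all genes. Slc2a3, which encodes the high-affinity glucose carrier GLUT3, stood above Ldha in PS at 1102 and 1030 RPKM and at 137 and 170 in RS. It fell by 2.76 ± 0.13 on the log2 scale (edgeR, adjusted p = 3.3e-06). Slc16a7, a monocarboxylate carrier for lactate and pyruvate, went the other way, from 47.6 and 49.3 RPKM to 232 and 200. Pfkfb3, which makes the allosteric activator of phosphofructokinase, rose from 1.25 and 1.33 RPKM to 13.6 and 10.4 (9.70-fold, edgeR adjusted p = 5.6e-06). Pfkfb1, on the X chromosome, was called higher from at most 5 reads in PS. Slc16a3 passed just above 1.5-fold and was lost under 6 of the 9 alternatives. Tigar, which degrades the same activator, fell from 3.41 and 3.80 RPKM to 1.33 and 1.30, and Pdk4 fell from 22 and 10 reads to 4 and 3. The calls of Eno2 and Pdk4 were lost without either spermatid library, with DESeq2 (adjusted p = 0.091 and 0.064) and with limma on log2(RPKM + 1) (log2 folds -0.39 and -0.38, under 1.5-fold).

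**Figure D3:**
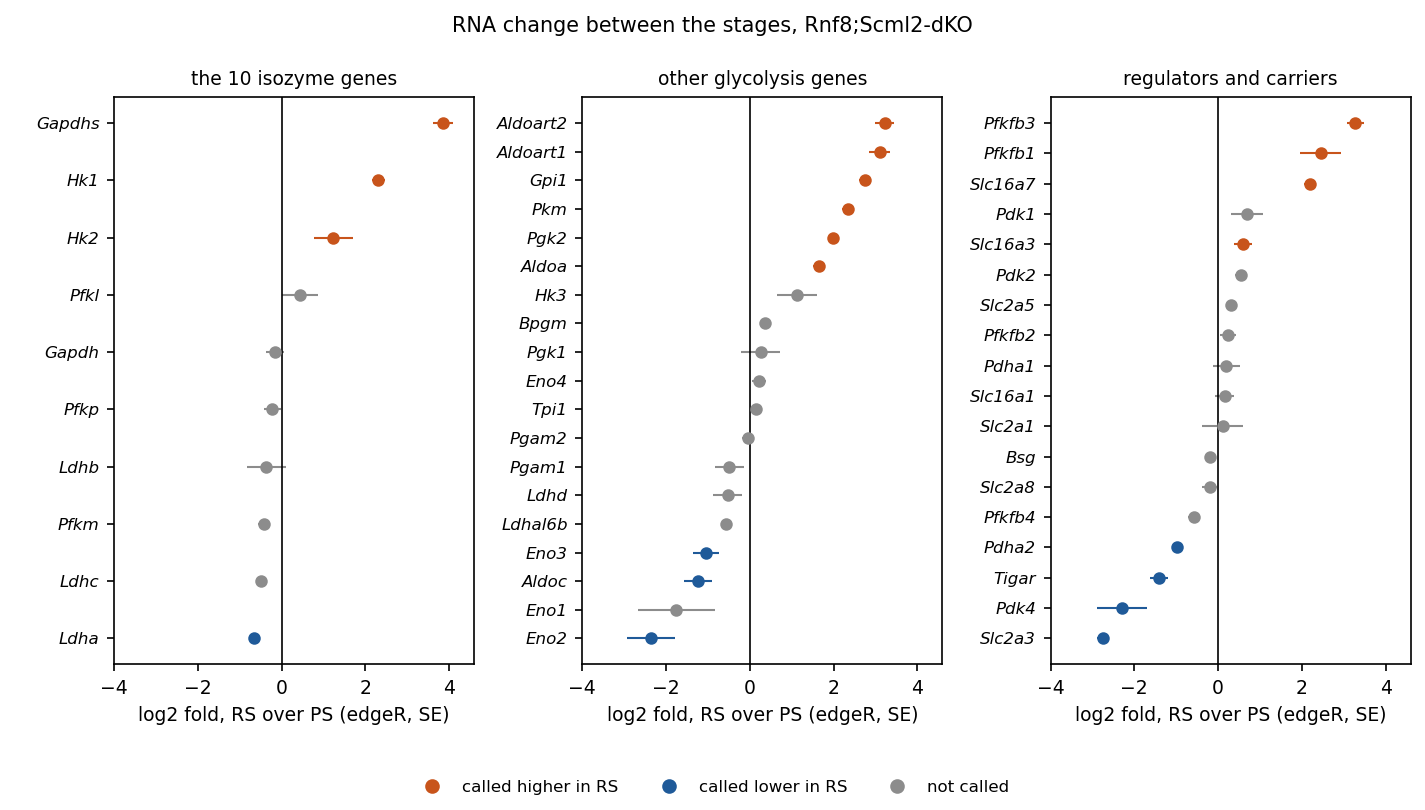
Log2 fold of RS over PS with its standard error (edgeR, 2 dKO libraries per stage) for the 10 isozyme genes, other glycolysis genes, and regulators and carriers. Orange marks genes called higher in RS, blue those called lower and grey those not called; Gapdhs lies at 3.85 and Gapdh at -0.15, and Slc2a3 is the lowest of the carriers at -2.76.

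H3K27ac in wild-type cells was read at the start sites of the same genes as the highest fold enrichment of a summit within 2 kb of a start, where fold enrichment is the pileup of fragments at a summit relative to the background of that sample. The 4 peak lists differed in this measure overall: its median over the genes with a summit was 15.2 and 16.4 in PS and 13.0 and 11.0 in RS. Values were therefore compared on the log2 scale after centring each sample on its median over the 11352 genes with a summit in all samples. Without centring, the median gene had a log2 fold of -0.42 from PS to RS. Of the 10 genes, 9 had a summit in all 4 samples, and Ldhb, with a summit in PS replicate 2 only (fold enrichment 6.58), was not tested. In RS, 2 of the 9 were called higher (Gapdhs and Hk1), beside 16.7% of the genes tested, and 2 were called lower (Ldha and Pfkp), beside 13.3%. Without centring, 2 of the 9 were called higher and 5 lower, and the calls over all genes turned from 1896 higher and 1512 lower to 907 and 3764. The members' median log2 fold was -0.37, beside 0.02 over all genes tested.

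**Figure D4:**
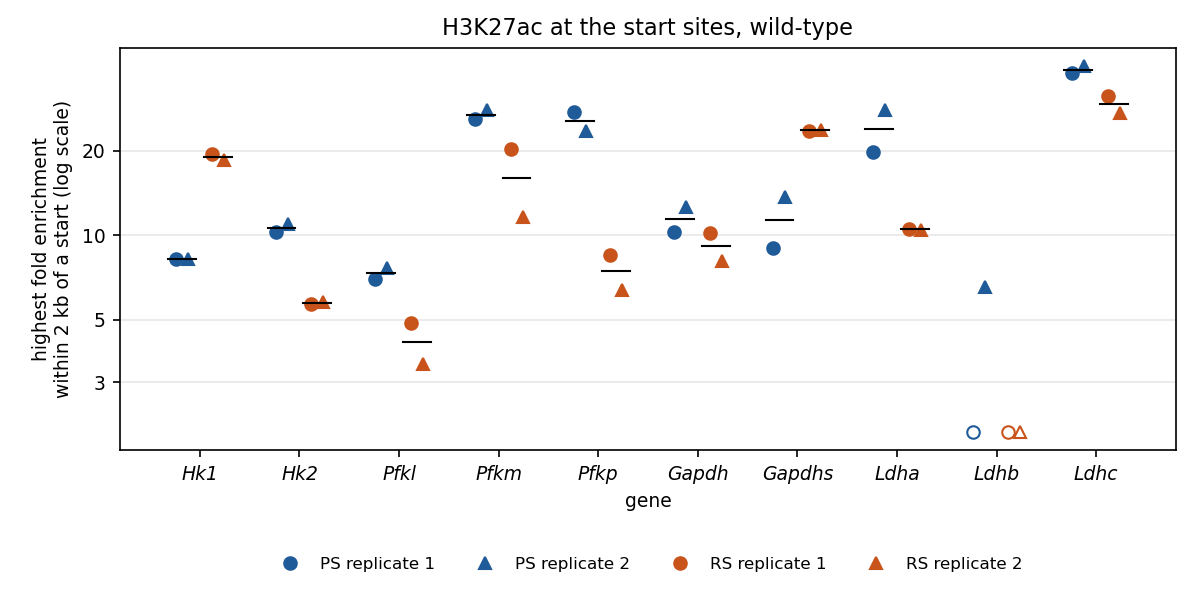
Highest H3K27ac fold enrichment within 2 kb of a start (log scale, not centred) in the 4 wild-type samples, with blue for PS, orange for RS, circles for replicate 1, triangles for replicate 2 and a black bar for the mean where both replicates had a summit. Open symbols at the bottom mark samples with no summit; Gapdhs and Hk1 are the genes whose RS values lie above their PS values.

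At Gapdhs, fold enrichment was 9.05 and 13.7 in PS and 23.6 and 23.8 in RS. Both spermatid samples lay above both spermatocyte samples, and the gene moved from the 27.6th and 41.0th percentile of genes with a summit to the 84.4th and 92.3rd. The centred log2 fold was 1.53 ± 0.17 (limma, adjusted p = 9.4e-12). Within 2 kb of the start, called peaks extended over 2334 and 2979 bases in PS and 7666 and 6126 in RS when counted to their full width. These widths were not scaled between samples. Over the genome, called peaks covered 60.0 Mb in RS replicate 1, against 33.1 and 36.7 Mb in PS and 33.4 Mb in RS replicate 2. The strongest summits near the gene were not at the listed start but upstream, at positions -4729 and -4574 in PS and -4506 and -4517 in RS, counted in bases from that start. Their fold enrichment was 19.8 and 22.5 in PS and 39.5 and 38.9 in RS, again higher in both spermatid samples. The files assign these upstream peaks jointly to Dmkn, Gapdhs, Sbsn and Tmem147, so they cannot be given to Gapdhs alone. The upstream Gapdhs start, whose window is printed above, lies 4.33 kb from the listed one. At Gapdh, fold enrichment was 10.3 and 12.6 in PS and 10.2 and 8.13 in RS, and the centred log2 fold was 0.12 ± 0.20 (limma, adjusted p = 0.67), which turned to -0.32 without centring. In wild-type chromatin as in dKO RNA, the testis gene was called higher in RS and the general gene was not called, though the difference between the 2 genes was not tested.

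At Hk1, fold enrichment was 8.23 and 8.22 in PS and 19.5 and 18.6 in RS, with a centred log2 fold of 1.65 ± 0.19 (limma, adjusted p = 1.4e-11). These summits lay within 250 bases of the HK1-sb start. At the general HK1 start the values were 7.41 and 7.13 in PS and 8.54 and 4.64 in RS, which overlapped between the stages. That start is 186 bases from the start of another gene, 2210417K05Rik, so its summits cannot be given to Hk1 alone. An intronic site 17448 to 17924 bases downstream of the HK1-sb start had strongest summits of 19.3 and 20.3 in PS and of 6.51 and 4.06 in RS, opposite in direction to the start itself. At Hk2, fold enrichment was 10.3 and 11.0 in PS and 5.70 and 5.81 in RS. The difference was not called after centring (log2 fold -0.44 ± 0.23, limma adjusted p = 0.11) and was called lower without it (log2 fold -0.89, adjusted p = 0.011). The files also assign to Hk2 an intergenic group of peaks downstream, at which the replicates of RS parted. The strongest summit, 94088 to 94271 bases from the start, was 14.8 and 15.9 in PS and 30.8 in RS replicate 2, whereas that of RS replicate 1 was 5.29 and lay 88373 bases away.

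**Figure D5:**
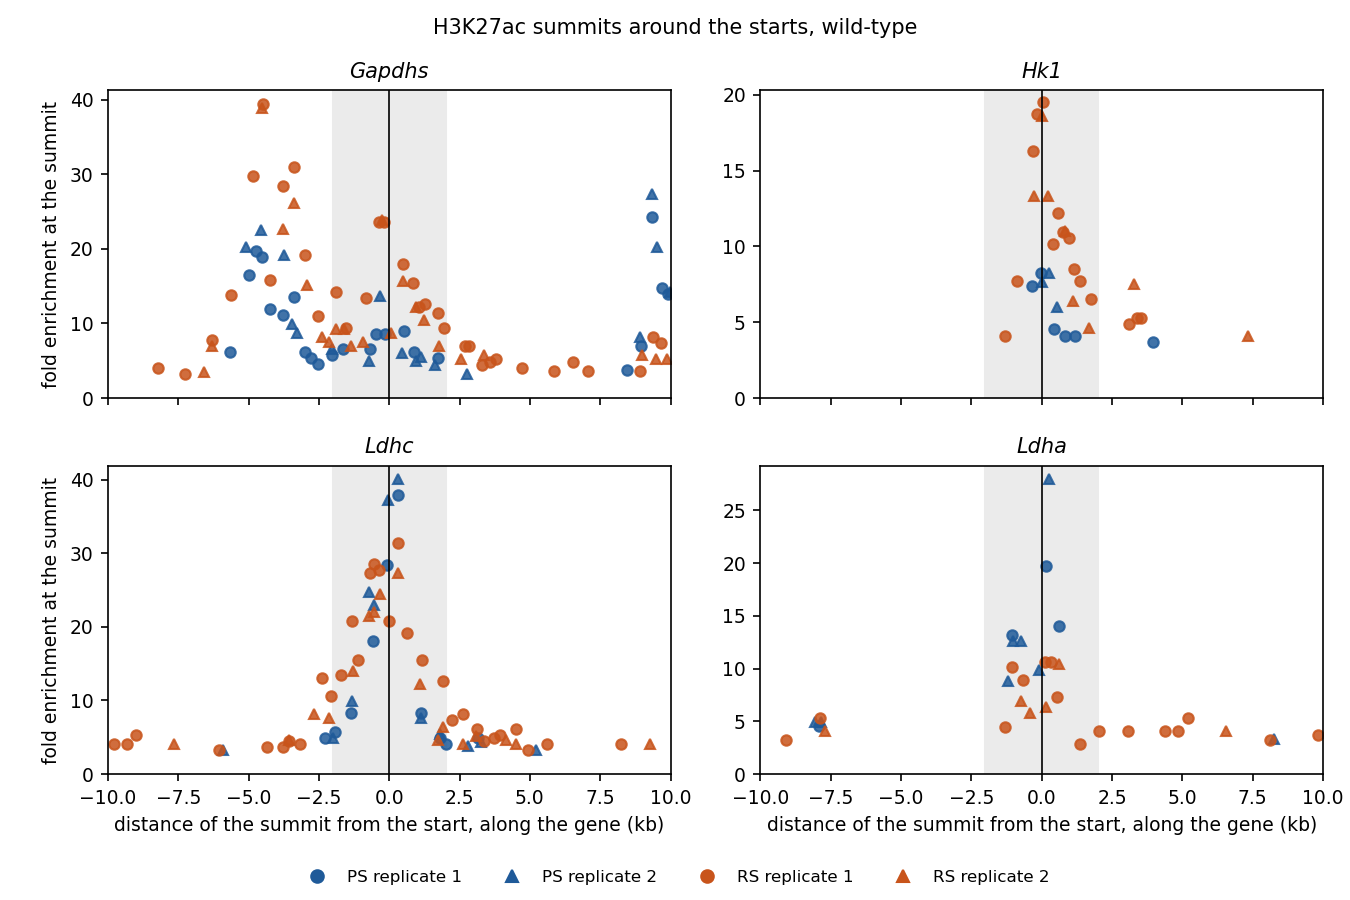
Fold enrichment of each H3K27ac summit against its distance in kb from the start, along the direction of the gene, for Gapdhs, Hk1 (HK1-sb start), Ldhc and Ldha (NM_001136069 start) in the 4 wild-type samples. Grey bands mark 2 kb on each side of the start; the tallest Gapdhs summits stand at -4506 and -4517 bases and reach 39.5 and 38.9 in RS, and the summits in the Gapdhs panel close to the start of the neighbour Tmem147, 9822 bases away, are taller in PS.

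At Ldhc, fold enrichment was 37.9 and 40.0 in PS and 31.3 and 27.3 in RS, between the 95.3rd and 97.3rd percentile of genes with a summit in every sample. The centred log2 fold was 0.03 ± 0.13 (limma, adjusted p = 0.88), which turned to -0.41 without centring and to -0.08 with quantile normalization. The summit stood 299 to 321 bases downstream of the start in all 4 samples. The peak over the start was 2989 and 3165 bases long in PS and 7052 and 4727 in RS, so the called stretch was longer in both spermatid samples. As given above, called peaks of RS replicate 1 covered more of the genome than those of any other sample. At Ldha, fold enrichment was 19.8 and 28.0 in PS and 10.6 and 10.4 in RS, with both spermatid samples below both spermatocyte samples. The centred log2 fold was -0.72 ± 0.17 (limma, adjusted p = 0.00032), and the change fell under 1.5-fold without PS replicate 2 (log2 fold -0.52) or without RS replicate 1 (log2 fold -0.54). These summits lay 106 to 617 bases downstream of the NM_001136069 start, to which the authors' split between isoforms assigned nearly all Ldha reads.

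Among the phosphofructokinases, Pfkp showed the largest difference, from 27.6 and 23.6 in PS to 8.54 and 6.39 in RS, a centred log2 fold of -1.35 ± 0.18 (limma, adjusted p = 1.9e-09). The RNA of Pfkp had a log2 fold of -0.22 and was not called. At Pfkm, fold enrichment was 25.9 and 28.0 in PS and 20.3 and 11.6 in RS, below 1.5-fold after centring (log2 fold -0.37 ± 0.15, limma adjusted p = 0.041). Without RS replicate 1 the log2 fold of Pfkm was -0.58, right at the 1.5-fold threshold. Without centring Pfkm was called lower (log2 fold -0.81, limma adjusted p = 0.0085). Only the most upstream of its 3 starts had a summit in every sample, and that start is 980 bases from the start of Senp1. At Pfkl, fold enrichment was 7.00 and 7.67 in PS and 4.88 and 3.48 in RS (log2 fold -0.39 ± 0.27, limma adjusted p = 0.24), with pileups of only 5 to 16 fragments. Pfkl was called lower without centring (log2 fold -0.83) and with quantile normalization (log2 fold -0.67).

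The log2 folds of RNA in the dKO and of centred H3K27ac in wild-type cells were then set side by side. They were 3.85 and 1.53 for Gapdhs, 2.31 and 1.65 for Hk1, and -0.65 and -0.72 for Ldha. For Ldhc they were -0.49 and 0.03, for Gapdh -0.15 and 0.12, and for Pfkp -0.22 and -1.35. For Hk2 they were 1.24 and -0.44, for Pfkl 0.44 and -0.39, and for Pfkm -0.42 and -0.37. The sign differed between the assays for Hk2, Pfkl, Ldhc and Gapdh. Pfkl, Ldhc and Gapdh were called in neither of these 2 fits, and Hk2 was not called in H3K27ac. For Ldhc and Gapdh the sign depended on centring: without it the H3K27ac log2 folds were -0.41 and -0.32, the sign of their RNA. Gapdhs, Hk1 and Ldha were called in the same direction in both assays. Of all genes tested, 30.4% were called higher and 27.6% lower in RNA, and 16.7% and 13.3% in H3K27ac. The share of genes called alike in both assays was not counted, so these genes are not set against it. Hk2 was called higher in RNA only and Pfkp lower in H3K27ac only. Among the other testis isozymes, H3K27ac at Aldoart1 (3.29 and 3.29 in PS, 11.4 and 8.71 in RS) and Aldoart2 (6.58 and 8.22 in PS, 18.3 and 10.4 in RS) was called higher in RS. At Pgk2 it stood at 18.5 and 20.3 in PS and 17.9 and 11.0 in RS (limma, adjusted p = 0.92), although its RNA rose 3.97-fold. At Pdha2 it was called higher (27.2 and 32.9 in PS, 35.8 and 33.1 in RS, log2 fold 0.64 ± 0.13, limma adjusted p = 3.9e-05), although its RNA fell, but without centring its log2 difference was only 0.20, under 1.5-fold.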

How the data were processed

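The members and gene lists were chosen with earlier results of these data known. RNA-seq reads were mapped by the authors with STAR (build mm10), keeping those with one location and few mismatches, and were divided among RefSeq isoforms by expectation-maximization. The authors deposited an estimated count and an RPKM (scaled to length and library size) for each transcript row. RNA was amplified before library preparation by a kit that does not mark strand, so antisense reads cannot be told apart. For ChIP-seq, the authors aligned reads with Bowtie and called peaks per sample with MACS2. The deposited lists give the pileup signal, the fold enrichment (a ratio to background), and −log10 p and q of each summit. The submitters' processing notes name Bowtie 1.1.1, MACS2 2.1.0.20140616 and STAR 2.4.2a. Columns of the authors' own comparisons were not used.

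Transcript rows were summed to genes. The 14647 genes with 10 or more counts in 2 or more libraries were tested with edgeR 4.0.16 (TMM, quasi-likelihood). The standard error is the log2 fold divided by the square root of F. For H3K27ac, rows whose own summit lay within 2 kb of a start were used, and log2 fold enrichment, centred on the sample median, was tested with limma 3.58.1 (trend). Peaks can span several kb, so a wide peak counted only through its summits in the window. P-values were adjusted by Benjamini-Hochberg over all genes tested. Promoter windows were aligned globally (match 1, mismatch -1, gap -2). Isozyme shares were compared by exact permutation tests. Replicates of a stage differed beyond sampling noise (chi-square over degrees of freedom 12.1 in PS and 7.33 in RS). Whether samples of a group came from separate animals is not in the labels, so p-values rest on the spread between these samples. In edgeR and limma the variance of each gene was estimated partly from all genes tested. Their p-values and standard errors therefore do not measure the spread of 2 samples per stage at that gene alone. Read totals of the ChIP-seq samples are unknown, and their background was 0.723 to 1.46 fragments. RNA reads carry no molecular identifiers.

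Genes were named by rule: all members, the 6 pathway genes with the largest called change in each direction, the testis isozymes Pgk2, Aldoart1, Aldoart2, Eno4, Ldhal6b and Pdha2, and the 3 genes nearest in level to Gapdhs and to Ldhc. 1 pathway gene within the counts is not reported here by name or in the plots. Hk3, Pgk1, Pgam1, Pgam2, Tpi1, Slc2a1, Slc2a5 and other genes were named after their values were seen. Tigar and Adgre1 were matched through RefSeq synonyms. Rnf8 (2.09 to 4.88 RPKM) and Scml2 (0.649 to 1.72 RPKM) had reads in all dKO libraries; with no wild-type RNA here, this does not test the labels. Alternatives were DESeq2 1.42.0, other normalizations, filters and windows, limma on log2(RPKM + 1), a replicate block and leaving out each replicate. Scripts (Python 3.11.15, R 4.3.3) were tested on simulated data.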

Additional observations from a re-analysis of the deposited data

How the results depend on the processing

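Gapdhs, Hk1 and Ldha kept their direction and their RNA call under all 9 alternatives: DESeq2, relative log expression factors, no filter on low counts, limma on log2(RPKM + 1), the replicate block, and leaving out each of the 4 libraries. The cause of the changes below was not tested. The Hk2 call was lost with limma on log2(RPKM + 1) (log2 fold 0.50, adjusted p = 0.039) and without PS replicate 2, RS replicate 1 or RS replicate 2. With single libraries left out, 3 to 4 of the 10 genes were called in RNA, 2 to 3 higher and 1 to 2 lower, and 16 to 20 of the pathway genes. In H3K27ac, 3 to 4 were called, 1 to 2 of them lower, and the calls for Gapdhs, Hk1 and Pfkp held under every alternative run. Without centring, 7 of the 9 genes were called, 5 of them lower, and over all genes 907 were called higher and 3764 lower. Counting every summit of a peak that overlaps the window, an alternative chosen after seeing the data, changed no member's call. The uncentred value of Pdha2 was also added after seeing the data. The Gapdhs share difference was 18.9 points by read counts and 12.4 to 27.2 points with 1 library left out, and the Ldhc share difference 1.41 to 2.11 points.

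Replicate numbers are shared by the stages, but the labels do not say that a number marks one animal. The study's methods say that PS and RS for RNA could be taken from 1 male, without saying which libraries share one. The correlation across genes of the replicate difference in PS with that in RS was 0.211 for RNA and 0.00901 for H3K27ac, from 2 pairs each. With the replicate block, 4589 genes were called higher and 4134 lower in RNA, 1904 and 1516 in H3K27ac, the same members were called in both assays, and the share differences were 19.8 and 1.76 points. Among pathway genes the block added Hk3 (log2 fold 1.19, adjusted p = 0.025). Depth limits Hk2, Pfkl and the upstream Ldha row, with under 100 reads per library, and, in H3K27ac, Pfkl, with pileups of 5 to 16 fragments.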

Other observations

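Slc2a5, which encodes the fructose carrier GLUT5, stood at 227 and 250 RPKM in PS and 292 and 286 in RS, and in RS it was higher than Slc2a3, the reverse of PS. This comparison was chosen after the values were seen. Slc2a1, which encodes the glucose carrier of most tissues, stood at 0.665 to 1.77 RPKM in all libraries. Pgam2, the muscle-type phosphoglycerate mutase, stood at 581 and 722 RPKM in PS and 615 and 623 in RS, with overlapping stages, whereas the widespread Pgam1 stood at 1.25 to 2.44 RPKM. At the start of Pgam2, H3K27ac fold enrichment was 25.1 and 30.1 in PS and 9.76 and 9.29 in RS (limma, adjusted p = 6.8e-08). At Tpi1, whose RNA stages also overlapped, it was 41.6 and 47.1 in PS and 16.7 and 11.6 in RS (limma, adjusted p = 1.5e-11). At Pgam1, H3K27ac fold enrichment was 22.2 and 26.9 in PS and 21.2 and 14.5 in RS, not called (limma, adjusted p = 0.85). As for Gapdh, only uniquely aligned reads were kept, so the RNA of Pgam1 and Pgk1 may be underestimated.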
